A study of Mus musculus with 12 samples.

Results

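The mitochondrial genome of the mouse gave 37 of the 54838 genes counted in 12 libraries of liver RNA. They were chosen by position, as every gene the deposited table places on MT, and comprise 13 mRNA, 2 rRNA and 22 tRNA genes. The libraries carry the labels DMH, DM and CTL, with 4 libraries each, and the labels do not spell these names out. According to its title, the study asked whether red Chlamydomonas reinhardtii, a green alga here rich in the haem precursor protoporphyrin IX, acts against diabetes in the liver. The labels do not say which group received it, and they give no strain, sex, age, dose or time for any group. Every library is labelled as liver, while the extraction text speaks of retinas. No label names the animal behind a library. The p-values below therefore cover the spread between samples, and that spread may be technical.

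Mitochondrial DNA is a small circle transcribed from both strands into long precursors that run over many genes. Most of its mRNAs and both rRNAs are separated by tRNA genes, and enzymes free them by cutting out the tRNAs on either side. The proteins are core subunits of the respiratory chain and of ATP synthase, which hepatocytes, cells rich in mitochondria, use to make ATP; the rRNAs and tRNAs serve the ribosome inside the organelle.

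Library totals ran from 13430122 to 17038017 counts, and TMM factors, which scale each library against the others, from 0.731 in DM2 to 1.23 in CTL2. The summed level of 6 hepatocyte markers, in CPM, counts scaled to a common library total, here the plain total, was 29989 to 45950 in DMH, 38291 to 47958 in DM and 42537 to 64350 in CTL. Of 8 retina markers, Crx and Prph2 were at 0 counts in all libraries, and the summed level of the list reached 27.2 CPM in DMH, 23.9 CPM in DM and 56.0 CPM in CTL. CTL1 stood apart in neutrophil markers and in Saa1, an acute-phase gene. Its 5 neutrophil markers summed to 312 CPM, against 26.6 CPM or less in the other CTL libraries. Saa1 was at 26033 CPM in CTL1, against 1359 CPM or less. Red-cell markers went the other way: 4 erythroid genes summed to 68.3 CPM in CTL1, the lowest library, against 140 to 1864 CPM in CTL2 to CTL4. Kupffer cell markers, 6 genes, summed to 92.8 to 362 CPM in DMH, 51.0 to 127 CPM in DM and 253 to 566 CPM in CTL. The part of these differences in the results below was not tested. In whole tissue, fewer cells of a type and less RNA per cell cannot be told apart. These sums also rest on plain totals. Mitochondrial genes and their nuclear copies, described further on, took on average 44.9% of these in DMH, 36.1% in DM and 23.0% in CTL. A larger such share lowers the CPM of all other genes, and its part in the marker sums was not tested.

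The 28 genes of the plus strand are 12 mRNAs, both rRNAs and 14 tRNAs. On the minus strand lie mt-Nd6, a complex I subunit, and 8 tRNA genes. Levels per length, as deposited FPKM (counts scaled for gene length and library total), differed greatly between classes. Of the mRNAs, mt-Co1, the catalytic subunit of cytochrome c oxidase (complex IV), was highest in 11 of 12 libraries, with a median of 39476 FPKM. mt-Cytb, the cytochrome b of complex III, followed at 32646 FPKM and was highest in the other library. The complex I subunits mt-Nd2 and mt-Nd1 had medians of 23118 and 20808 FPKM, and their ranges over the libraries overlapped. Another group of near levels was mt-Co3, mt-Co2, mt-Nd4 and mt-Atp8, at 16965, 16513, 16288 and 14043 FPKM. The lowest mRNAs were mt-Nd6 at 8074, mt-Nd3 at 6437, mt-Atp6 at 5713, mt-Nd5 at 4273 and mt-Nd4l at 3682 FPKM. Ranges over the libraries overlapped between neighbours in this order. Levels of at least 7 of these mRNAs, and so the order above, also depend on how reads were divided with copies in the nuclear genome, described further on. The level of mt-Atp6 also varied between libraries: its counts were 8.14% to 32.4% of its sum with its copy.

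Both rRNAs stood well below the leading mRNAs. mt-Rnr1, the RNA of the small ribosomal subunit, had a median of 4595 FPKM, and mt-Rnr2, that of the large subunit, 3567 FPKM. The FPKM of mt-Rnr1 exceeded that of mt-Rnr2 in 12 of 12 libraries, by 1.10 to 1.63 times. The FPKM of mt-Co1 was 6.06 to 29.5 times that of mt-Rnr2. The labels name total RNA and give no step that selects or depletes an RNA class.

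Among the tRNAs, mt-Te, the tRNA of glutamate, was highest in 12 of 12 libraries, with a median of 4295 FPKM and 2.71 to 5.06 times the next tRNA. It lies directly beside mt-Nd6 on the same strand, and its FPKM was 39.2% to 59.0% of that of mt-Nd6. After it came mt-Tp at 1024, mt-Tc at 977, mt-Tn at 908, mt-Ti at 765 and mt-Tl1 at 659 FPKM, with overlapping ranges. Of these 6 tRNAs, 4 lie on the minus strand. The lowest medians were those of mt-Ts2 at 1.22, mt-Tf at 2.83 and mt-Tv at 5.07 FPKM. Reads of a mature tRNA and of a precursor that still holds it cannot be told apart in these counts.

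**Figure D1:**
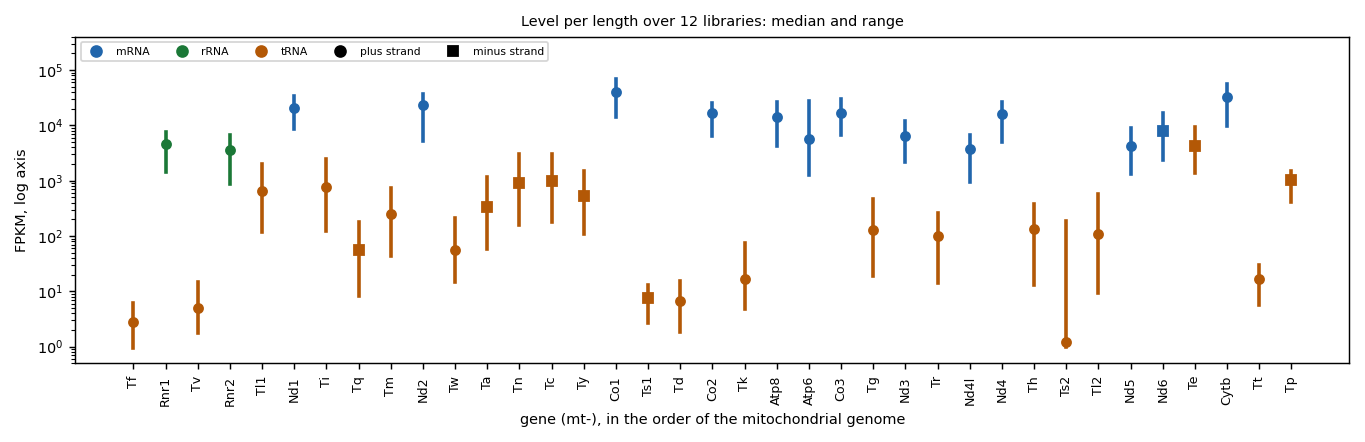
Level per length (FPKM, log axis) of the 37 mitochondrial genes in genome order; points are medians and lines the range over 12 libraries, circles plus-strand and squares minus-strand genes. Medians run from 39476 FPKM for mt-Co1 to 1.22 FPKM for mt-Ts2, and the tRNA nearest to the mRNAs is mt-Te.

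Mitochondrial genes took a larger share of the counts in DMH and DM than in CTL on average, with wide overlap. The share of all counts was 37.6, 31.3, 29.1 and 22.5% in DMH1 to DMH4, 21.9, 33.7, 18.7 and 22.3% in DM1 to DM4, and 7.88, 10.7, 19.7 and 23.5% in CTL1 to CTL4. Group values were 30.1% ± 6.23 in DMH, 24.2% ± 6.55 in DM and 15.4% ± 7.36 in CTL (SD, n = 4 each). CTL1 and CTL2 were the lowest of the 12 libraries, and CTL4 lay above 3 of the 4 DM libraries and above DMH4.

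The 3 RNA classes differed in how far the groups lay apart. mRNAs made up most of the counts, at 28.8% ± 6.15 in DMH, 22.98% ± 6.45 in DM and 14.7% ± 7.05 in CTL of all counts. The rRNA share was 1.44, 1.49, 0.578 and 1.43% in DMH1 to DMH4, 1.75, 1.17, 0.767 and 0.747% in DM1 to DM4, and 0.274, 0.663, 1.21 and 0.838% in CTL1 to CTL4. It overlapped between all groups, and DMH3 lay far below the other DMH libraries. The tRNA share was 0.181, 0.123, 0.104 and 0.0895% in DMH1 to DMH4, 0.0764, 0.122, 0.0586 and 0.0683% in DM1 to DM4, and 0.0227, 0.0217, 0.0566 and 0.0503% in CTL1 to CTL4. Every DMH and DM library lay above every CTL library in it. Counts from minus-strand genes took 0.991, 0.646, 0.870 and 0.466% in DMH1 to DMH4, 0.464, 0.827, 0.478 and 0.484% in DM1 to DM4, and 0.248, 0.139, 0.324 and 0.377% in CTL1 to CTL4 of all counts, again with every DMH and DM library above every CTL library. As a share of mitochondrial counts, the minus strand gave 2.44% ± 0.453 in DMH, 2.32% ± 0.212 in DM and 1.93% ± 0.830 in CTL, and CTL1 was the highest of all at 3.15%.

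Measured against the mRNAs of the same library, which takes the library total out, tRNAs kept this order. There were 5.03, 4.16, 3.66 and 4.27 in DMH1 to DMH4, 3.80, 3.75, 3.27 and 3.18 in DM1 to DM4, and 2.997, 2.17, 3.07 and 2.23 in CTL1 to CTL4 tRNA counts per 1000 mitochondrial mRNA counts. No CTL library reached the lowest DMH or DM library, while DMH and DM overlapped. The margin was small between CTL3, at 3.07, and DM4, at 3.18. The mRNA counts include mt-Atp6, whose level differed sharply between libraries, as described further on. It took 6.27% of mitochondrial mRNA counts in CTL3 and 1.22% in DM4. CTL3 had 9073 tRNA and 2958076 mRNA counts, and DM4 had 10678 and 3355574. With mt-Atp6 left out of the mRNA counts, CTL3 lies above DM4, so the full separation holds only with mt-Atp6 counted. Plus-strand tRNAs gave 1.06 ± 0.210 in DMH, 0.867 ± 0.0520 in DM and 0.544 ± 0.146 in CTL per 1000 mRNA counts, and minus-strand tRNAs 3.22 ± 0.372 in DMH, 2.63 ± 0.336 in DM and 2.07 ± 0.453 in CTL (SD, n = 4 each). The rRNAs, at 44.7 ± 20.02 in DMH, 50.1 ± 24.7 in DM and 51.2 ± 16.9 in CTL per 1000 mRNA counts, did not separate the groups.

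**Figure D2:**
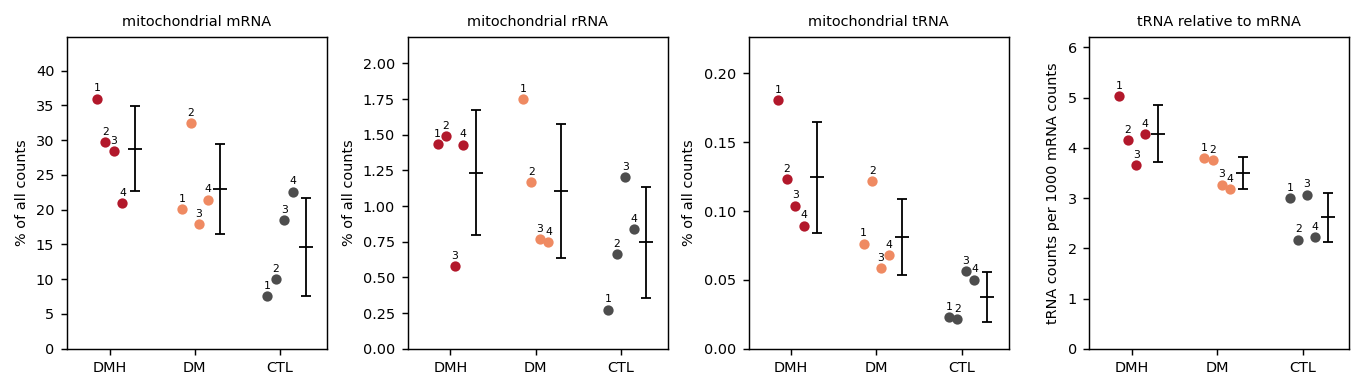
Share of all counts taken by mitochondrial mRNAs, rRNAs and tRNAs, and tRNA counts per 1000 mRNA counts; each point is a library with its replicate number, and the bar is mean ± SD of 4. Both tRNA panels show every CTL library below every DMH and DM library, while mRNA and rRNA shares overlap. Per 1000 mRNA counts, the gap between CTL3 and DM4 is lost when mt-Atp6 is left out of the mRNA counts.

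Within the mRNAs, the share of each complex overlapped between the groups. Complex I subunits (mt-Nd1 to mt-Nd6 and mt-Nd4l) took 38.7% ± 0.951 in DMH, 37.1% ± 0.750 in DM and 37.8% ± 1.72 in CTL of mitochondrial mRNA counts. Complex IV subunits (mt-Co1, mt-Co2, mt-Co3) took 41.2% ± 1.68 in DMH, 41.8% ± 2.25 in DM and 38.96% ± 6.11 in CTL. mt-Cytb, of complex III, took 16.3% ± 1.47 in DMH, 17.1% ± 0.559 in DM and 16.9% ± 1.65 in CTL. The ATP synthase subunits mt-Atp8 and mt-Atp6 took 3.84% ± 2.42 in DMH, 3.94% ± 2.64 in DM and 6.39% ± 2.78 in CTL. This share depends on the uneven level of mt-Atp6 described further on. mt-Co1 alone ranged from 22.1% in CTL2 to 35.1% in CTL1, both of them CTL libraries.

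In DMH against CTL, 15 of the 34 mitochondrial genes tested were higher and 0 lower (edgeR quasi-likelihood test, Benjamini-Hochberg adjusted p under 0.05 over 14643 genes). Over all genes tested, percent_called was 7.25 higher and 8.15 lower. DESeq2 called 25 of the 36 members it tested, all higher, with percent_called of 9.72 higher and 9.88 lower. The edgeR count was 7 without a filter on low counts, with percent_called over all genes of 2.53 higher and 2.87 lower. It was 9 with the 8 DMH and CTL libraries alone, with 2.78 and 1.65. With the replicate number as a block it was 0, with 3.43 and 3.41. The 15 were 14 of the 19 tRNAs tested and 1 of 13 mRNAs, mt-Nd6, with 0 of 2 rRNAs. Fold changes were above 0 for 33 of the 34, with a median log2 fold change of 1.45, against -0.01 over all genes. Class medians were 2.19 for tRNAs, 1.17 for mRNAs and 0.92 for rRNAs. The count fell to 2 without DMH1 or CTL2, 5 without CTL1, 6 without DMH2, 8 without DMH3 and 9 without CTL3. Over all genes percent_called fell as well, to 3.99 higher and 2.56 lower without DMH1 and 2.45 and 1.73 without CTL2. It was 5.28 and 4.27 without CTL1 and 4.02 and 4.23 without DMH2. Without DMH3 it was 3.76 and 2.76, and without CTL3 4.86 and 5.11. mt-Tf, mt-Tv and mt-Td, at 1 to 17 counts per library, were too low to be tested. With plain library totals in place of TMM factors, 12 were called, the median of all genes moved to -0.17, and calls over all genes were 231 higher and 512 lower, against 1062 and 1193 with TMM factors.

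**Figure D3:**
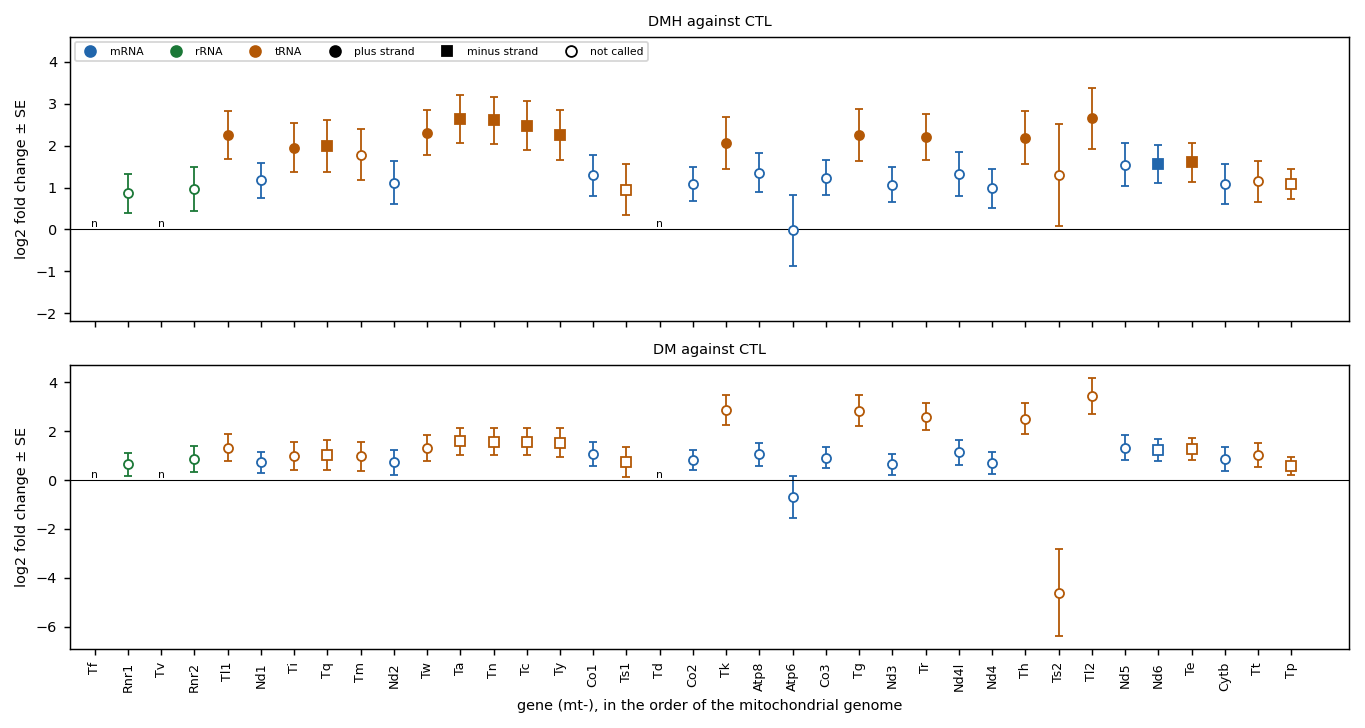
Log2 fold change ± SE of each mitochondrial gene in genome order, DMH against CTL above and DM against CTL below; filled symbols were called, n marks genes not tested. In DMH against CTL the 15 filled symbols are 14 tRNAs and mt-Nd6; in DM against CTL none is filled, and mt-Tk, mt-Tg, mt-Tr, mt-Th and mt-Tl2 stand above the rest.

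In DMH against CTL all 5 neighbouring tRNAs between mt-Nd2 and mt-Co1 were called. This cluster holds the tRNAs of alanine, asparagine, cysteine and tyrosine, beside that of tryptophan on the plus strand. Their genes on GRCm38, from GENCODE M21, are shown 5′ to 3′ on their own strand because no other neighbours gave as many calls; capitals mark the anticodon, by which the tRNA reads its codons. They lie at MT:5018-5086, MT:5089-5159, MT:5192-5257 and MT:5260-5326 on the minus strand and MT:4950-5016 on the plus strand.
mt-Ta: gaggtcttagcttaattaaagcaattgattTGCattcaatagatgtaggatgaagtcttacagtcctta
mt-Tn: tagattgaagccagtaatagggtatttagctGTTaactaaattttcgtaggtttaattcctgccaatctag
mt-Tc: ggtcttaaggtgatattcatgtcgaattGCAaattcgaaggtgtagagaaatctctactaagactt
mt-Ty: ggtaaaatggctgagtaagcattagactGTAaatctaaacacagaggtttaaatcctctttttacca
mt-Tw: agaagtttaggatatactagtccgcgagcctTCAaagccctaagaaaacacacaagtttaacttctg

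mt-Ta had 96.3, 55.7, 36.2 and 36.4 CPM in DMH1 to DMH4, 27.1, 51.4, 11.6 and 18.7 CPM in DM1 to DM4, and 6.44, 3.28, 15.5 and 11.00 CPM in CTL1 to CTL4. All DMH libraries lay above all CTL libraries, with DMH1 highest and CTL2 lowest, while DM3 fell within the CTL range. The log2 fold change was 2.63 ± 0.57 (SE; edgeR adjusted p = 0.0167). mt-Tn had 264, 162, 95.5 and 101 CPM in DMH1 to DMH4, 75.02, 143, 33.3 and 53.2 CPM in DM1 to DM4, and 18.5, 9.15, 44.7 and 30.1 CPM in CTL1 to CTL4, with the same separation of DMH from CTL. It rose by a log2 fold change of 2.60 ± 0.57 (edgeR adjusted p = 0.0172). The calls of mt-Ta and mt-Tn held in each of the 12 fits that left out 1 library, with adjusted p of 0.0115 to 0.0436 and 0.0123 to 0.0443.

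mt-Tc had 246, 156, 87.5 and 89.7 CPM in DMH1 to DMH4, 73.7, 145, 33.4 and 54.5 CPM in DM1 to DM4, and 16.4, 9.75, 46.2 and 31.5 CPM in CTL1 to CTL4. DMH and CTL did not overlap, while DM2 lay within the DMH range and DM3 within the CTL range. Its log2 fold change was 2.48 ± 0.58 (edgeR adjusted p = 0.02), and the call was lost without CTL2 or DMH1, at adjusted p of up to 0.0522. mt-Ty averaged 71.8 ± 37.3 CPM in DMH, 43.3 ± 29.1 CPM in DM and 15.02 ± 10.4 CPM in CTL, with a log2 fold change of 2.26 ± 0.61 (edgeR adjusted p = 0.0313), lost without CTL1, CTL2, DMH1 or DMH2. mt-Tw, a low gene, averaged 9.26 ± 5.95 CPM in DMH, 4.66 ± 2.53 CPM in DM and 1.86 ± 0.956 CPM in CTL, with 2.31 ± 0.54 (edgeR adjusted p = 0.0196), lost without CTL2 or DMH1. DMH and CTL did not overlap for either of the 2.

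At the far end of the genome, mt-Nd6 and mt-Te are neighbours on the minus strand at MT:13552-14070 and MT:14071-14139. mt-Nd6 shares its last 14 bases with the end of mt-Nd5 on the other strand. The plus-strand sequence of MT:13532-13585 is shown because reads over the shared bases, in capitals, count for both genes unless strand was used; the second line is mt-Te with its anticodon in capitals.
mt-Nd5/mt-Nd6: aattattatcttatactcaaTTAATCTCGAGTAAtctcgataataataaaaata
mt-Te: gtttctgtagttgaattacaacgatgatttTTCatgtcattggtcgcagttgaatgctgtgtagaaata

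mt-Nd6 had 10396, 6160.0, 7376 and 3775 CPM in DMH1 to DMH4, 4017, 10070.5, 3588 and 4321 CPM in DM1 to DM4, and 2261, 996, 2666 and 3393 CPM in CTL1 to CTL4. Every DMH library and every DM library lay above every CTL library. The log2 fold change of DMH against CTL was 1.57 ± 0.45 (edgeR adjusted p = 0.037), the one call among the mRNAs. mt-Te had 779, 442, 412 and 286 CPM in DMH1 to DMH4, 308, 717, 211 and 288 CPM in DM1 to DM4, and 118, 78.1, 206 and 231 CPM in CTL1 to CTL4. DMH and CTL did not overlap, while DM3 lay within the CTL range. It rose by 1.60 ± 0.46 on the log2 scale (edgeR adjusted p = 0.0361). Both calls were lost without any 1 of CTL1, CTL2, CTL3, DMH1, DMH2 or DMH3, at adjusted p of up to 0.0891. mt-Nd5, across the strand from mt-Nd6, had a log2 fold change of 1.55 ± 0.51 and was not called (edgeR adjusted p = 0.0577). The ratio of mt-Nd6 to mt-Nd5 counts was 0.479 to 0.554 in DMH, 0.460 to 0.572 in DM and 0.428 to 0.754 in CTL, and it did not separate the groups.

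In 5 plus-strand tRNAs scattered between mRNAs, DM was on average above DMH, though not called, and both averaged above CTL. They are the tRNAs of leucine (mt-Tl2), arginine (mt-Tr), glycine (mt-Tg), histidine (mt-Th) and lysine (mt-Tk), at MT:11671-11741, MT:9808-9875, MT:9391-9458, MT:11546-11612 and MT:7700-7764. Their sequences are shown, anticodons in capitals, because they had the largest fold changes of DM against CTL. mt-Tr, mt-Tg and mt-Tk lie in stretches that may have a nuclear counterpart, described further on.
mt-Tl2: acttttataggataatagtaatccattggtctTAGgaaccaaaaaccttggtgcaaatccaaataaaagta
mt-Tr: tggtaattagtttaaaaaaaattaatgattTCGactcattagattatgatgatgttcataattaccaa
mt-Tg: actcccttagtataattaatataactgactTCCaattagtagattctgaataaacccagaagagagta
mt-Th: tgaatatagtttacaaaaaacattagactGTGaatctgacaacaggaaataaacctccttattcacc
mt-Tk: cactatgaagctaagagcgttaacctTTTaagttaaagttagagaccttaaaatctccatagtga

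mt-Tl2 had 26.3, 6.86, 8.45 and 16.8 CPM in DMH1 to DMH4, 5.55, 55.5, 16.3 and 22.6 CPM in DM1 to DM4, and 2.36, 0.547, 2.84 and 3.56 CPM in CTL1 to CTL4. DM2 was the highest library and CTL2 the lowest, and neither DMH nor DM overlapped CTL. The log2 fold change was 2.65 ± 0.73 in DMH against CTL (edgeR adjusted p = 0.0343) and 3.43 ± 0.75 in DM against CTL, where it was not called (edgeR adjusted p = 0.0721). mt-Tr had 13.7, 6.21, 7.38 and 9.27 CPM in DMH1 to DMH4, 4.33, 23.9, 7.92 and 11.9 CPM in DM1 to DM4, and 1.21, 0.796, 2.78 and 3.18 CPM in CTL1 to CTL4. Again DMH and DM each lay clear of CTL, and DM2 was highest. Its log2 fold change was 2.20 ± 0.55 in DMH against CTL (edgeR adjusted p = 0.0245) and 2.59 ± 0.56 in DM against CTL (edgeR adjusted p = 0.0665).

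mt-Tg had 21.7, 8.28, 9.18 and 10.4 CPM in DMH1 to DMH4, 6.09, 43.3, 9.58 and 14.8 CPM in DM1 to DM4, and 2.23, 1.04, 3.78 and 3.37 CPM in CTL1 to CTL4. mt-Th had 19.4, 8.64, 13.96 and 9.79 CPM in DMH1 to DMH4, 5.55, 34.4, 9.64 and 14.4 CPM in DM1 to DM4, and 2.17, 0.696, 3.84 and 4.64 CPM in CTL1 to CTL4. In both, CTL stood apart below DMH and DM, and DM2 was highest. The log2 fold changes of DMH against CTL were 2.25 ± 0.62 for mt-Tg (edgeR adjusted p = 0.0337) and 2.19 ± 0.62 for mt-Th (edgeR adjusted p = 0.0366). mt-Tk, at 1.85 ± 0.886 CPM in DMH, 3.22 ± 2.51 CPM in DM and 0.437 ± 0.192 CPM in CTL, showed 2.07 ± 0.61 (edgeR adjusted p = 0.0406). In DM against CTL the same 3 tRNAs had log2 fold changes of 2.82 ± 0.63, 2.50 ± 0.63 and 2.87 ± 0.61, none of them called (edgeR adjusted p = 0.0738, 0.0958 and 0.0626). The DMH calls of these 5 tRNAs were each lost without 1 or more single libraries, CTL1, CTL2 and DMH1 among them, at adjusted p of up to 0.106.

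**Figure D4:**
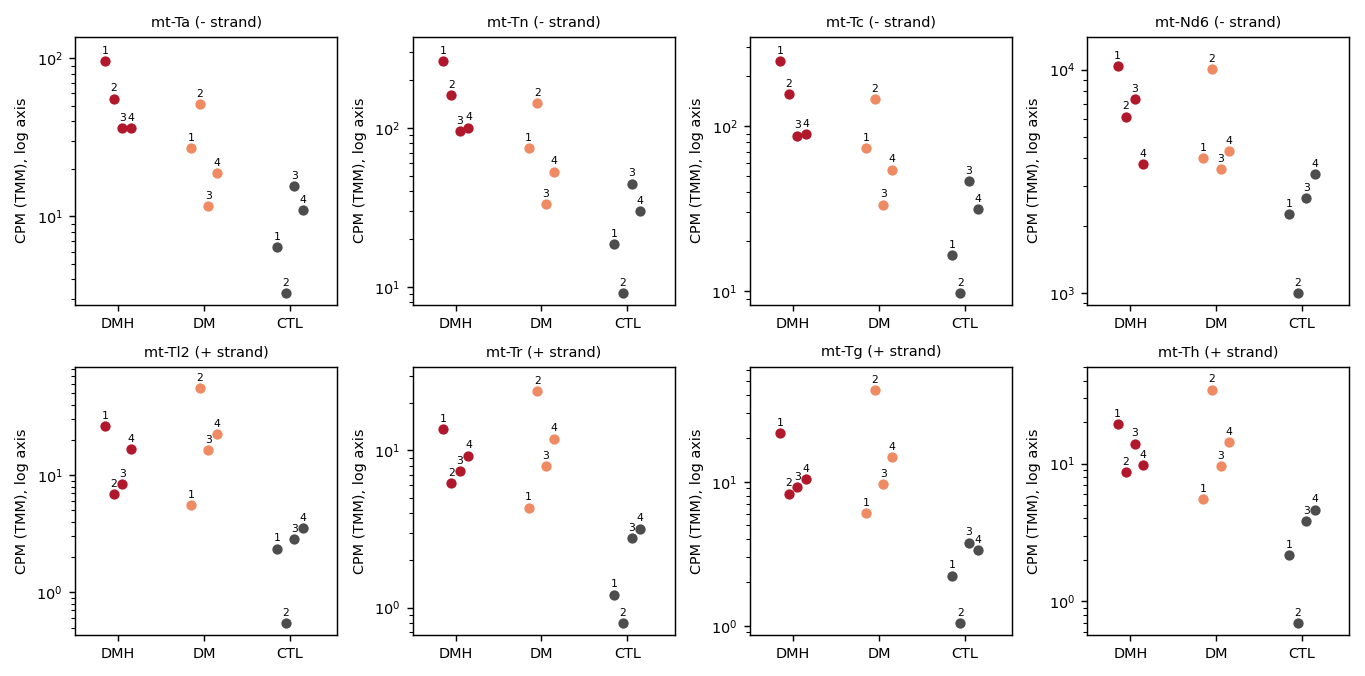
CPM with TMM factors (log axis) of mt-Ta, mt-Tn, mt-Tc and mt-Nd6 on the minus strand and of mt-Tl2, mt-Tr, mt-Tg and mt-Th on the plus strand, each point a library with its replicate number. In all 8 panels the DMH libraries lie above the CTL libraries, and in the lower panels and for mt-Nd6 the DM libraries do so as well. All 8 genes were called in DMH against CTL in the same data, so this separation adds no support to the calls.

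These tRNAs were also compared with an mRNA beside them, a quantity that the library total does not enter. The FPKM of mt-Tl2 as a share of that of mt-Nd5, the next gene downstream, was 3.46, 1.55, 1.41 and 6.32% in DMH1 to DMH4, 1.79, 6.51, 6.69 and 6.54% in DM1 to DM4, and 2.02, 0.704, 1.17 and 1.32% in CTL1 to CTL4. DM2, DM3, DM4 and DMH4 were high, and the rest, DM1 included, lay at or below 3.46%; CTL1 lay above DMH2, DMH3 and DM1. For mt-Tr and the upstream mt-Nd3 the share was 1.40, 0.982, 1.76 and 1.82% in DMH1 to DMH4, 1.01, 3.12, 2.86 and 2.84% in DM1 to DM4, and 0.816, 0.381, 0.763 and 0.644% in CTL1 to CTL4. Here, unlike in the other 4, every DMH and DM library exceeded every CTL library, and DM2, DM3 and DM4 were highest. For mt-Tg and the upstream mt-Co3 the share was 0.861, 0.484, 0.683 and 0.884% in DMH1 to DMH4, 0.531, 1.86, 1.25 and 1.29% in DM1 to DM4, and 0.495, 0.228, 0.452 and 0.301% in CTL1 to CTL4, and DMH2 lay below CTL1. For mt-Th and the upstream mt-Nd4 it was 0.911, 0.585, 1.17 and 0.977% in DMH1 to DMH4, 0.576, 1.77, 1.35 and 1.29% in DM1 to DM4, and 0.664, 0.155, 0.411 and 0.376% in CTL1 to CTL4, and DMH2 and DM1 lay below CTL1. For mt-Tk and the upstream mt-Co2 it was 0.140, 0.0738, 0.0862 and 0.218% in DMH1 to DMH4, 0.0898, 0.329, 0.243 and 0.344% in DM1 to DM4, and 0.106, 0.0551, 0.0443 and 0.0642% in CTL1 to CTL4, and DMH2, DMH3 and DM1 lay below CTL1. In all 5 tRNAs CTL1 was the highest CTL library. How these shares lie beside the counts of mt-Ts2 is given further on. For mt-Te and mt-Nd6 it was 52.3% ± 6.99 in DMH, 51.4% ± 5.69 in DM and 51.9% ± 9.12 in CTL (SD, n = 4 each), with no separation.

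Of the other called tRNAs, mt-Tl1, the leucine tRNA that follows mt-Rnr2, averaged 113 ± 58.5 CPM in DMH, 58.9 ± 32.3 CPM in DM and 23.6 ± 15.9 CPM in CTL and rose by a log2 fold change of 2.26 ± 0.57 in DMH against CTL (edgeR adjusted p = 0.0257). DMH and CTL did not overlap, and the call was lost without CTL2, DMH1 or DMH2. mt-Ti, of isoleucine, averaged 121 ± 70.2 CPM in DMH, 61.3 ± 23.2 CPM in DM and 31.3 ± 21.4 CPM in CTL, with 1.95 ± 0.59 (edgeR adjusted p = 0.0461), and its groups overlapped, since DMH3 lay below CTL3 and CTL4. mt-Tq, of glutamine, lies across from it with 3 shared bases and averaged 8.30 ± 5.002 CPM in DMH, 4.22 ± 2.37 CPM in DM and 2.08 ± 1.53 CPM in CTL, with 1.99 ± 0.61 (edgeR adjusted p = 0.0462). Without 1 library the adjusted p of mt-Ti and mt-Tq reached 0.115 and 0.116. Not called were mt-Tp, of proline, at 1.09 ± 0.36 (edgeR adjusted p = 0.0606), mt-Tm, of methionine, at 1.79 ± 0.60 (edgeR adjusted p = 0.0638), mt-Tt, of threonine, at 1.15 ± 0.49 (edgeR adjusted p = 0.125), and the serine tRNAs mt-Ts1 and mt-Ts2.

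Apart from mt-Nd6, the mRNAs did not pass the test in DMH against CTL. The 6 mRNAs that were not the main match of an annotated nuclear copy, mt-Nd1, mt-Nd2, mt-Atp8, mt-Nd5, mt-Nd6 and mt-Cytb, had log2 fold changes of 1.08 to 1.57; of these, mt-Atp8 shares 43 bases with the copy of mt-Atp6. mt-Co1 averaged 91621 ± 30517 CPM in DMH, 78573 ± 46909 CPM in DM and 37400.5 ± 19027 CPM in CTL (SD, n = 4 each). Its log2 fold change was 1.29 ± 0.49 (edgeR adjusted p = 0.0907), and DMH4 lay below CTL4. mt-Co3, another complex IV subunit, was at 1.24 ± 0.43 (edgeR adjusted p = 0.0653) with no overlap of DMH and CTL, and mt-Co2 at 1.09 ± 0.41 (edgeR adjusted p = 0.0829). mt-Cytb was at 1.08 ± 0.48 (edgeR adjusted p = 0.14), and of the complex I subunits mt-Nd1 was at 1.17 ± 0.42 (edgeR adjusted p = 0.075), mt-Nd2 at 1.12 ± 0.52 (edgeR adjusted p = 0.152), mt-Nd3 at 1.07 ± 0.42 (edgeR adjusted p = 0.101), mt-Nd4 at 0.98 ± 0.46 (edgeR adjusted p = 0.161) and mt-Nd4l at 1.33 ± 0.53 (edgeR adjusted p = 0.102). mt-Atp8 was at 1.35 ± 0.46 (edgeR adjusted p = 0.0653).

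The rRNAs had the lowest median fold change of the 3 classes. mt-Rnr1 had 6936, 7929, 2374 and 5906 CPM in DMH1 to DMH4, 7015, 6733, 2863 and 3292 CPM in DM1 to DM4, and 1341, 2551, 4972 and 3876 CPM in CTL1 to CTL4. mt-Rnr2 averaged 7443 ± 3172 CPM in DMH, 6816 ± 3519 CPM in DM and 3796 ± 2193 CPM in CTL. Their groups overlapped, and log2 fold changes of DMH against CTL were 0.86 ± 0.47 and 0.97 ± 0.53 (edgeR adjusted p = 0.226 and 0.22). The ratio of mt-Rnr1 to mt-Rnr2 counts was 0.661 to 0.918 in DMH, 0.676 to 0.826 in DM and 0.771 to 0.981 in CTL. Of 9 two-sided exact permutation tests, on this ratio and on those of mt-Nd6 to mt-Nd5 and mt-Rnr2 to mt-Co1 in the 3 comparisons, the smallest p was 0.0857 for mt-Rnr1 over mt-Rnr2 in DM against CTL, with a difference of -0.21 on the log2 scale. Adjusted over the 9, all p were 0.771 or more, and the smallest that 70 arrangements can give is 0.0286. The ratio of mt-Rnr2 to mt-Co1 ranged from 0.0347 to 0.139 in DMH, 0.0630 to 0.169 in DM and 0.0519 to 0.158 in CTL.

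In DM against CTL, 0 of the 34 mitochondrial genes were called by edgeR, and 17 had an unadjusted p under 0.05. Over all genes, 2758 of the 14643 tested had an unadjusted p under 0.05. Over all genes tested, percent_called was 0.15 higher and 0.0683 lower. DESeq2 called 7 of the 36 it tested, all of them tRNAs and all higher: mt-Th, mt-Tl2, mt-Tr, mt-Tk, mt-Tn, mt-Ta and mt-Tg. Its percent_called over all genes was 2.31 higher and 2.9 lower. Fold changes were above 0 for 32 of 34, with a median log2 fold change of 1.04, against -0.03 over all genes. Class medians were 1.32 for tRNAs, 0.86 for mRNAs and 0.74 for rRNAs. mt-Nd6, whose groups did not overlap, had a log2 fold change of 1.24 ± 0.45 (edgeR adjusted p = 0.168). The values below 0 were those of mt-Atp6 and mt-Ts2. With plain library totals the median over all genes moved to -0.15 and that of the members was 0.84. This comparison and DMH against CTL share the 4 CTL libraries.

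In DMH against DM, 0 of the 34 were called by edgeR and 1, mt-Ts2, had an unadjusted p under 0.05. Over all genes, 3019 of the 14643 tested had such a p. DESeq2 called mt-Ts2 among the 33 it tested. Over all genes tested, percent_called was 0.0273 higher and 0.00683 lower by edgeR and 2.73 higher and 2.25 lower by DESeq2. Fold changes were above 0 for 29 of 34, with a median log2 fold change of 0.33, against 0.03 over all genes. The 5 below 0 were mt-Tk at -0.80 ± 0.55, mt-Tl2 at -0.78 ± 0.68, mt-Tg at -0.57 ± 0.58, mt-Tr at -0.39 ± 0.52 and mt-Th at -0.30 ± 0.59. By contrast the minus-strand tRNAs mt-Ta, mt-Tn and mt-Tc were at 1.05 ± 0.54, 1.03 ± 0.54 and 0.92 ± 0.55, none of them called (edgeR adjusted p = 0.293, 0.302 and 0.366). mt-Nd6 was at 0.33 ± 0.44 (edgeR adjusted p = 0.707), and 12 of 12 plus-strand mRNAs lay between 0.20 and 0.66.

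The deposited table holds 9 genes in the nuclear genome with at least 50% of the 25-base words of their transcripts in a mitochondrial gene. Such copies are fragments of mitochondrial DNA inserted into a chromosome, and reads from a stretch that is identical in both cannot be assigned by sequence. On chromosome 1, 7 of them lie in a row on the minus strand between 24611535 and 24616197. Gm10925 matches mt-Atp6 over 678 bases, Gm28437 mt-Co3 over 783, Gm28661 mt-Co2 over 681, Gm28439 mt-Nd4 over 876 and Gm10222 mt-Nd4l over 294, each at 100% identity. Gm29216 covers the last 492 bases of mt-Co1 at 98.8% identity, and Gm28438 matches mt-Nd3 over 345 bases with 1 difference, T3C, counted from the first base of the gene. Between these copies, 5 of the 6 gaps or overlaps have the same length as between their matches on MT, and the other, which holds mt-Tr on MT, differs by 1 base. The gaps hold 6 more mitochondrial genes on MT, mt-Ts1, mt-Td, mt-Tk, most of mt-Atp8, mt-Tg and mt-Tr. Only annotated transcripts were searched, so whether these 6 also have a copy on chromosome 1 that draws reads was not tested. The first 33 bases of mt-Nd3 (MT:9459-9491, plus strand) and of Gm28438 (chr1:24613087-24613119, minus strand) show how little tells them apart; the differing base is in capitals.
mt-Nd3: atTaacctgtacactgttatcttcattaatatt
Gm28438: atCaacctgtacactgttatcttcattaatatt

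The copies of chromosome 1 took 14.4% ± 3.01 in DMH, 11.7% ± 2.95 in DM and 7.47% ± 3.16 in CTL of all counts (SD, n = 4 each). Counts of mt-Co3 were 0.489 to 0.537 times those of Gm28437 in all 12 libraries, those of mt-Co2 0.510 to 0.571 times Gm28661, those of mt-Nd3 0.480 to 0.539 times Gm28438 and those of mt-Nd4l 0.466 to 0.510 times Gm10222. In these 4 pairs the copy had more counts than the mitochondrial gene, at a nearly fixed ratio. Other pairs went the other way and varied. mt-Nd4 had 2.03 to 2.83 times the counts of Gm28439 in DMH, 2.01 to 2.61 in DM and 2.66 to 3.43 in CTL, with DM below CTL. mt-Co1 had 2.46 to 4.07 times those of Gm29216. Both of these copies cover only part of their gene. On chromosome 2, Gm13340, with 53.7% of its words in mt-Co1, averaged 3252 ± 1205 CPM in DMH, 2786 ± 1789 CPM in DM and 1221 ± 715 CPM in CTL, and Gm13341, a copy of part of mt-Co2, stayed at or below 7.24 CPM. No copy was called in any comparison, and log2 fold changes of the chromosome 1 copies in DMH against CTL were 1.01 to 1.28 (edgeR adjusted p = 0.0663 to 0.131). With copies added to their genes, the mitochondrial share was 44.9%, 36.1% and 23.0% of all counts in DMH, DM and CTL, and 15 genes were called in DMH against CTL, the same number as without. Over all genes percent_called was then 7.28 higher and 8.17 lower.

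mt-Atp6, a proton channel subunit of ATP synthase, stood in a ratio to its copy that differed between libraries. It starts inside mt-Atp8, with which it shares 43 bases, in capitals in this plus-strand sequence of MT:7907-7989, shown because the level of mt-Atp6 relative to mt-Atp8 varied between libraries.
mt-Atp8/mt-Atp6: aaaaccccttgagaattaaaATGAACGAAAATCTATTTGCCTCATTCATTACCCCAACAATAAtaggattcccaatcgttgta

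mt-Atp6 had 5163, 20532, 2902 and 2353 CPM in DMH1 to DMH4, 2514, 4835, 9576 and 2597 CPM in DM1 to DM4, and 866, 5815, 10961 and 13816 CPM in CTL1 to CTL4. DMH2, DM3, CTL2, CTL3 and CTL4 were high and the other 7 libraries low, in a pattern that crossed the groups. In those 5 libraries mt-Atp6 had 0.456 to 0.480 times the counts of Gm10925, and in the other 7, DMH1, DMH3, DMH4, DM1, DM2, DM4 and CTL1, 0.0886 to 0.0946 times. Counts of mt-Atp6 were 4.59 to 5.92 times those of mt-Atp8 in the 5 and 0.667 to 1.03 times in the 7. The sum of mt-Atp6 and Gm10925 took 12.4% to 13.7% of mitochondrial and copy counts in the 5, and 8.40% to 9.33% in the 7. The sum was thus lower in the 7 as well, and adding the copy did not even out the libraries. The log2 fold change of mt-Atp6 was -0.02 ± 0.84 in DMH against CTL (edgeR adjusted p = 0.987) and -0.69 ± 0.85 in DM against CTL (edgeR adjusted p = 0.709). With the copy added these were 0.82 and 0.50. The cause of this difference between libraries was not tested.

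A second gene with libraries of 2 kinds was mt-Ts2, a serine tRNA of 59 bases between mt-Th and mt-Tl2 at MT:11613-11671, shown with its anticodon in capitals.
mt-Ts2: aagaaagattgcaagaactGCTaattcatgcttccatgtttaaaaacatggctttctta
It had 1, 103, 186 and 1 counts in DMH1 to DMH4, 1 count in each DM library, and 1, 8, 52 and 60 counts in CTL1 to CTL4. Its FPKM was 87.5% to 149% of that of mt-Tl2, the next gene, in DMH2, DMH3, CTL2, CTL3 and CTL4, and 0.174% to 3.25% in the others. The log2 fold change was -4.60 ± 1.78 in DM against CTL (edgeR adjusted p = 0.195), 5.90 ± 1.76 in DMH against DM (edgeR adjusted p = 0.132) and 1.30 ± 1.22 in DMH against CTL (edgeR adjusted p = 0.501). DMH held libraries of both kinds, as did CTL. The libraries at 1 count, DMH1, DMH4, DM1 to DM4 and CTL1, had mt-Tl2 at 1.79% to 6.69% of mt-Nd5 by FPKM. The others had 0.704% to 1.55%. mt-Tk over mt-Co2 split the same way, at 0.0898% or more against 0.0862% or less. For mt-Tr, mt-Tg and mt-Th the 2 kinds overlapped. Every DM library was at 1 count, so group and kind cannot be told apart in DM. The cause was not tested.

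**Figure D5:**
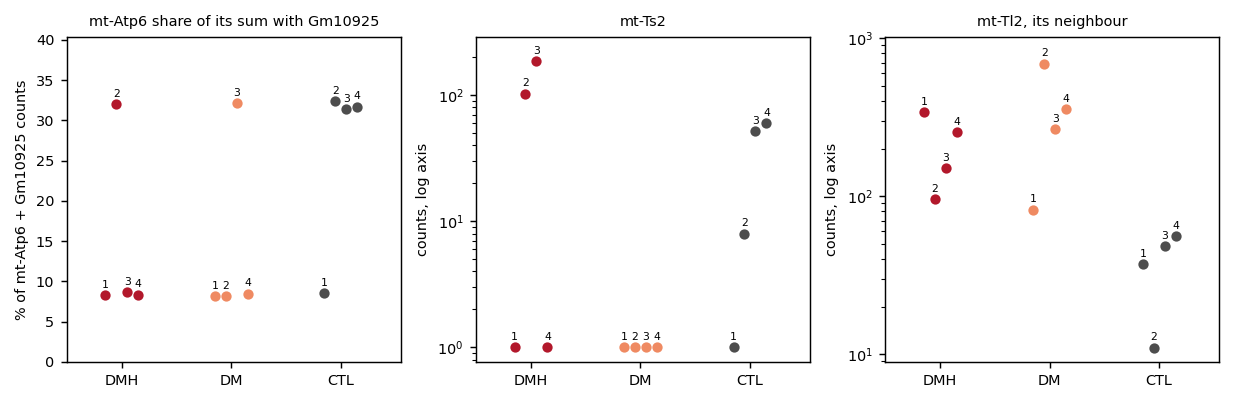
Share of mt-Atp6 in its sum with Gm10925, counts of mt-Ts2 and counts of its neighbour mt-Tl2 (log axes), each point a library with its replicate number. The mt-Atp6 share is 8.14% to 8.64% in 7 libraries and 31.3% to 32.4% in 5; mt-Ts2 is at 1 count in 7 libraries, while mt-Tl2 is not.

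A list of 61 nuclear genes, written from general knowledge, was read from the same fit, and 60 were tested. Most of its genes transcribe, cut, modify or stabilise mitochondrial RNA; it also holds genes that replicate mitochondrial DNA, such as Polg, Twnk and Primpol, and nuclear regulators, such as Ppargc1a, Ppargc1b and Nrf1. In DMH against CTL, 7 were higher and 1 lower, beside percent_called of 7.25 and 8.15 over all genes. The median log2 fold change of the list was 0.21, against -0.01 over all genes. In DM against CTL and in DMH against DM edgeR called 0, with 5 and 17 of the 60 at an unadjusted p under 0.05. Over all 14643 genes tested, 2758 and 3019 had such a p. DESeq2 called 0 and 5 of the 59 it tested. List medians were 0.01 and 0.25. The 8 calls of DMH against CTL were 1 without CTL2, 2 without DMH2 or DMH3, 3 without DMH1, 4 without CTL1, 5 without DM4 and 13 without DMH4, and 1 with plain library totals. Over all genes, percent_called was 5.84 higher and 6.59 lower without DM4 and 10.6 and 9.23 without DMH4. With plain totals it was 1.58 and 3.5, and for the other fits it is given above.

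Primpol, a primase and polymerase that works in nucleus and mitochondria, had 14.7, 10.3, 10.6 and 6.90 CPM in DMH1 to DMH4, 3.72, 5.23, 6.51 and 4.45 CPM in DM1 to DM4, and 2.74, 4.38, 4.67 and 2.80 CPM in CTL1 to CTL4. All DMH libraries lay above all DM and CTL libraries. Its log2 fold change was 1.54 ± 0.29 in DMH against CTL (edgeR adjusted p = 0.012), and the call held without any 1 library. It shares 1069 exonic bases with Cenpu, which averaged 0.553 CPM. Ppargc1b, a coactivator of genes for mitochondria, had 5.51, 6.28, 5.41 and 3.61 CPM in DMH1 to DMH4, 3.25, 1.13, 1.78 and 1.84 CPM in DM1 to DM4, and 1.72, 1.54, 2.48 and 2.10 CPM in CTL1 to CTL4. DMH lay above DM and CTL in all libraries. It rose by a log2 fold change of 1.41 ± 0.32 (edgeR adjusted p = 0.0181), a call lost without CTL2.

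The other 5 higher genes changed less. They were Mterf1b at 1.06 ± 0.31 and Mterf1a at 0.72 ± 0.22, forms of a factor that binds mitochondrial DNA after the rRNA genes, Fastkd1 at 0.71 ± 0.20, Ptcd3, a protein of the small mitochondrial ribosomal subunit, at 0.63 ± 0.18, and Mterf3 at 0.60 ± 0.16 (edgeR adjusted p = 0.0307 to 0.0449). Mterf1b has 74.7% of its 25-base words in Mterf1a, so their counts are uncertain, and Mterf3 shares 229 exonic bases with Ptdss1, at 7.20 CPM. Grsf1, an RNA-binding protein of mitochondrial RNA granules, was lower, with 21.3, 32.2, 36.03 and 32.2 CPM in DMH1 to DMH4, 48.7, 45.3, 48.2 and 57.8 CPM in DM1 to DM4, and 44.3, 54.6, 43.04 and 42.97 CPM in CTL1 to CTL4. DMH lay below DM and CTL, and the log2 fold change was -0.60 ± 0.17 (edgeR adjusted p = 0.0371). Its call was lost in 11 of the 12 fits without 1 library.

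The central factors were not called in DMH against CTL. Polrmt, the mitochondrial RNA polymerase, had a log2 fold change of 0.40 ± 0.21 (edgeR adjusted p = 0.197). Tfam, which packs mitochondrial DNA and starts its transcription, was at -0.11 ± 0.13 (edgeR adjusted p = 0.605). Lrpprc, which stabilises mitochondrial mRNAs, was at 0.21 ± 0.13 (edgeR adjusted p = 0.302), and Elac2, the enzyme that cuts tRNA 3′ ends, at 0.19 ± 0.23 (edgeR adjusted p = 0.616). Ppargc1a, the best-known coactivator of mitochondrial genes, was at 0.11 ± 0.60 (edgeR adjusted p = 0.918).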

How the data were processed

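The authors deposited, for each of 12 libraries, a whole-number read count and an FPKM value per Ensembl gene. Per the series' design text, HISAT2 2.1.0 aligned the reads to GRCm38 after FastQC 0.11.8 and Trimmomatic 0.36, and StringTie counted them per gene; the submitters' processing notes also name DESeq2. Not given in the sources used here are the version of StringTie, its annotation and its strand setting. Without the strand setting, reads of a gene and of one that overlaps it on the other strand cannot be told apart; 9 pairs of mitochondrial genes share bases, 3 of them on opposite strands. The authors' design text names TMM before FPKM, but the deposited FPKM equal count over length over plain library total, to a relative difference of 0.000391 at most.

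Counts were tested with edgeR 4.0.16 in R 4.3.3 (quasi-likelihood F test, robust, TMM factors) in 1 model of all 12 libraries with a mean per group and 9 residual degrees of freedom. Genes were kept by filterByExpr at a minimum count of 10 and a total of 15, which left 14643. P-values were Benjamini-Hochberg adjusted over these genes, with calls at adjusted values under 0.05. Levels are CPM with TMM factors unless the plain total is named, and shares are of all counts of a library. Sums over genes and ratios of levels got no test. Many genes described as without overlap between groups were named because they were called, and the share without overlap over all genes is not given. The 3 count ratios were compared by exact permutation over 70 arrangements. Each standard error is the fold change over the root of its F value. On simulated counts for DM against CTL over 14409 genes, 26% of 2-fold and 80% of 4-fold changes were recovered, with 4 false among 110 calls. Chi-square per degree of freedom between libraries of 1 group was 39.5 to 432, above sampling noise, so none was taken for a repeat deposit of another; this does not show that they came from separate animals.

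Mitochondrial genes had the same coordinates as in GENCODE M21, which gave all sequences. A nuclear gene was taken as a copy where at least 50% of the 25-base words of its transcripts lay in a mitochondrial gene. The members, the list of 61 nuclear genes for mitochondrial RNA and DNA, of which all were found, and the marker lists were chosen with earlier results of these data known. Named with values were all members, copies above 0.1% of all counts, called genes of that list and 5 central factors. Alternatives were RLE factors, totals and factors of nuclear genes, plain totals, no filter, a minimum count of 50, DESeq2 1.42.0, the 8 libraries of a comparison alone, a replicate block, copies added and each library left out. Depth is that of the library totals, and no interval for counting error is given.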

Additional observations from a re-analysis of the deposited data

Results flagged for a closer look

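Of 153 groups of 4 libraries examined, 9 held a library far from the other 3 by Dixon's criterion; chance gives about 1 in 20. In DMH, mt-Atp6 was at 20532 CPM in DMH2, against 2353 to 5163 CPM in the other 3, and mt-Tg at 21.7 CPM in DMH1, against 8.28 to 10.4 CPM. The rRNA share of all counts was 0.578% in DMH3, against 1.43% to 1.49%. In DM, DM2 was apart in mt-Nd5 at 21899 CPM, against 6272 to 8874 CPM, in mt-Nd6 at 10070.5 CPM, against 3588 to 4321 CPM, and in the minus-strand share of all counts at 0.827%, against 0.464% to 0.484%. Mterf1a was at 7.92 CPM in DM3, against 5.88 to 5.95 CPM. In CTL, Polrmt was at 9.37 CPM in CTL1, against 16.4 to 17.7 CPM, and Grsf1 at 54.6 CPM in CTL2, against 43.0 to 44.3 CPM. DM2 also had the lowest TMM factor of the 12 libraries, at 0.731; the part of this in its values was not tested.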

How the results depend on the processing

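The 15 mitochondrial genes called in DMH against CTL were 7 without a filter, 9 with the 8 libraries of those groups alone, 25 by DESeq2, 0 with a replicate block, and 2 to 19 with 1 library left out. Over all genes percent_called moved too, to 2.53 higher and 2.87 lower without a filter and 2.78 and 1.65 with 8 libraries. With the block it was 3.43 and 3.41. With 1 library left out it ran from 2.45 to 10.6 higher and from 1.73 to 9.23 lower. Same-numbered libraries correlated at -0.129 to 0.112 in their deviations from group means, and no library correlated best with its own number throughout. With 4 libraries per group, such correlations cannot exclude that the numbers pair the samples or mark a shared batch. In DM against CTL the count of 0 was 1 without a filter, 7 by DESeq2 and 0 to 1 with 1 library left out. Without a filter, percent_called over all genes in DM against CTL was 0.143 higher and 0.0891 lower. With 1 library left out it ran from 0.0268 to 0.894 higher and from 0.0133 to 0.773 lower. In DMH against DM the count of 0 was 1 by DESeq2 and 0 with 1 library left out. Of the 61 nuclear genes for mitochondrial RNA and DNA, the 8 calls in DMH against CTL were 1 with plain totals, 2 without a filter, with 8 libraries or with the block, 14 by DESeq2 and 1 to 13 with 1 library left out; DESeq2 called 5 in DMH against DM. With copies added, the mitochondrial share was 44.9%, 36.1% and 23.0% in DMH, DM and CTL, and the mRNA share 43.5%, 34.9% and 22.3%.

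The following log2 fold changes turned direction under at least 1 setting; none of them was called by edgeR in that comparison with all libraries. mt-Atp6 turned to 0.50 with copies added in DM against CTL, and in DMH against CTL to 0.00588 with RLE factors, 0.033 at a minimum count of 50, 0.017 with 8 libraries, 0.030 with the block and 0.82 with copies added. Plain totals turned Polrmt to -0.12, Grsf1 to -0.013 and Ppargc1b to -0.0495 in DM against CTL, where the block gave Ppargc1b -0.013; in DMH against CTL the block gave Ppargc1a -0.14. With 1 library left out, values in DM against CTL ran from -0.16 to 0.10 for Polrmt, -0.60 to 0.20 for Ppargc1a and -0.28 to 0.23 for Ppargc1b. In DMH against DM they ran from -0.071 to 0.42 for mt-Rnr2, -0.49 to 1.25 for mt-Atp6, -0.019 to 0.70 for mt-Nd4l, -0.031 to 0.68 for mt-Cytb, -0.96 to 0.31 for mt-Tg, -0.65 to 0.21 for mt-Tr, -0.57 to 0.42 for mt-Th, -1.20 to 0.00244 for mt-Tl2, -0.071 to 0.65 for Gm28439, -0.057 to 0.68 for Gm10222 and -0.37 to 0.76 for Ppargc1a. In DMH against CTL they ran from -1.18 to 0.39 for mt-Atp6, -0.057 to 0.37 for Elac2 and -0.66 to 0.64 for Ppargc1a. Log2 ratios ran from -0.17 to 0.10 (DM against CTL) and -0.11 to 0.16 (DMH against CTL) for mt-Nd6 over mt-Nd5, for mt-Rnr2 over mt-Co1 from -0.47 to 0.080 (DM against CTL), -0.46 to 0.21 (DMH against DM) and -0.63 to 0.056 (DMH against CTL), and from -0.030 to 0.13 in DMH against DM for mt-Rnr1 over mt-Rnr2. The causes were not tested. Over all named genes and settings, 2928 values kept direction and side of the threshold, 170 lost a call, 40 gained one and 45 turned. The lowest tRNAs, at 1 to 17 counts, are limited by depth.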
